A study of Mus musculus with 8 samples.

Results

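The genes described here are the simple keratins Krt7, Krt8, Krt18 and Krt19, the epithelial adhesion molecule Epcam, the tight junction genes Cldn3, Cldn4, Cldn7 and Ocln, and the epithelial splicing regulator Esrp1. They were taken by symbol, and each of the 10 had 1 row among the 50578 genes of the count table. They were measured by RNA-seq in mouse embryonic fibroblasts (MEFs) and in MEFs exposed to 1 of 3 compounds. MEFs are mesenchymal cells grown from dissociated mid-gestation embryos. The compounds came from a computational screen for small molecules that turn fibroblasts into hepatic progenitor-like cells. From its top molecules the authors chose these 3 by the morphology and gene expression of treated MEFs. All cells were wild type, of C57BL/6J origin, and the methods give passages 3 to 5 and the removal of head, tail, limbs and internal organs before culture. Each of the 4 groups had 2 libraries: untreated MEFs, and MEFs given either carbidopa, LY-364947 or CHIR-99021, each at 10 µM. The decarboxylase of aromatic amino acids is the known target of carbidopa, the TGF-beta type I receptor that of LY-364947, and the kinase GSK3 that of CHIR-99021. The sample labels spell the second compound LY-364747, the study's text uses both LY-364747 and LY-364947, and the latter name is used below. The labels call the treated cells hepatic-like. The length of treatment before RNA-seq is not given in the sources used here, nor whether the libraries of a group came from separate embryos or cultures, so p-values measure only the spread between these libraries.

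Simple epithelia, such as bile duct and gut lining, build their intermediate filaments from keratins, and a keratin filament needs 1 type I and 1 type II chain in equal amounts. Krt18 and Krt19 are type I chains, and Krt7 and Krt8 are type II chains. Krt8 and Krt18 are the keratin pair of hepatocytes, whereas Krt7 and Krt19 are added in bile duct cells and are used as markers of hepatic progenitors. Claudins and occludin form the strands of the tight junction, Epcam is a surface glycoprotein of epithelial and liver progenitor cells, and Esrp1 directs the epithelial pattern of alternative splicing. Fibroblasts rely on vimentin filaments instead and keep epithelial genes low, in part through the repressors of the Snail and Zeb families, which bind E-boxes.

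In GRCm38, 2 pairs of these genes lie side by side. Krt8 (chromosome 15, 101996698 to 102004482, minus strand) and Krt18 (chromosome 15, 102028180 to 102032027, plus strand) are neighbours 23698 bases apart, and Krt7 (chromosome 15, 101411043 to 101430313, plus strand) lies in the same type II cluster. Cldn4 (chromosome 5, 134945119 to 134946934, minus strand) and Cldn3 (chromosome 5, 134986214 to 134987472, plus strand) are neighbours 39280 bases apart. Krt19 (chromosome 11, 100140810 to 100148665, minus strand) sits in the type I keratin cluster. The others are Cldn7 (chromosome 11, 69964779 to 69967885, plus strand), Epcam (chromosome 17, 87635979 to 87651129, plus strand), Ocln (chromosome 13, 100496507 to 100552718, minus strand) and Esrp1 (chromosome 4, 11331933 to 11386783, minus strand).

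RefSeq promoter windows, 250 bases before to 50 bases after an annotated start on GRCm38.p6, were at hand for 8 of the 10 genes. Shown are the window of Krt18 and that of its neighbour and filament partner Krt8, since their read counts went apart, and those of Krt7 and Cldn4, which had the largest fall and the largest rise among the 4 genes with enough reads to test. Capitals mark matches, on either strand, to the E-box CAGGTG, the GC box GGGCGG, the AP-1 motif TGANTCA or the TATA box TATAAA. The windows are chr15:102027966-102028265 on the plus strand for Krt18, chr15:102004293-102004592 on the minus strand for Krt8, chr15:101412153-101412452 on the plus strand for Krt7, and chr5:134946885-134947184 on the minus strand for Cldn4.
Krt18: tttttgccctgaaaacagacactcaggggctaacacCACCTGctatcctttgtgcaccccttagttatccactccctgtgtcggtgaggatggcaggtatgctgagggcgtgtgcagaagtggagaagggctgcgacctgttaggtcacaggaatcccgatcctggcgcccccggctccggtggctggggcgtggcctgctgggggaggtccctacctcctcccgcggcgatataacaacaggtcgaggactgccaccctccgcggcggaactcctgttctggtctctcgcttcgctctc
Krt8: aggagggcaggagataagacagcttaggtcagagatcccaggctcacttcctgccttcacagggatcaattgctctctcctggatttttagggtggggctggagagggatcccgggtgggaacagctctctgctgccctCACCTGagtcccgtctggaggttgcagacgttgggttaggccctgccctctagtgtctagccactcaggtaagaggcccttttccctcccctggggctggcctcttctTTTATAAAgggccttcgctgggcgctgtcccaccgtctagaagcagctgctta
Krt7: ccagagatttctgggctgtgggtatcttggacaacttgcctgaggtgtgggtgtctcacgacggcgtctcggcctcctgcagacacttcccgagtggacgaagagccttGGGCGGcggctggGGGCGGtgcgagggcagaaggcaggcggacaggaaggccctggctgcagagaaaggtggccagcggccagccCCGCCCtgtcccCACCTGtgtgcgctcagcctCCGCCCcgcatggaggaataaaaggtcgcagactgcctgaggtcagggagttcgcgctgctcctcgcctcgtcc
Cldn4: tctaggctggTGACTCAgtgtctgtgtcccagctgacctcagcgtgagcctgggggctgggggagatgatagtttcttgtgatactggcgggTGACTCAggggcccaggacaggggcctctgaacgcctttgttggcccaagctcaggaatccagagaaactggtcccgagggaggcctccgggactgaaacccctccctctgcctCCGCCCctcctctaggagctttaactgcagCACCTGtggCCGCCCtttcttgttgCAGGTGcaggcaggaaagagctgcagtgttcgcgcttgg

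The Krt18 window held 1 E-box at -214 (first base, with the start at 1 and the base before it at -1) and none of the other motifs. The Krt8 window held 1 E-box at -111 and a TATA box in both orientations, which overlap each other. In the Krt7 window 1 E-box lay among 4 GC boxes, and in the Cldn4 window there were 2 E-boxes, 2 GC boxes and 2 AP-1 motifs, the latter at -240 and -158. An E-box was found in 9 of the 10 windows of these genes, including at least 1 window of each of the 8 genes (both Ocln windows overlap and share a match), beside 20.2% of all 32851 promoter windows in the table. A GC box was found in 7 of the 10 windows, beside 35.7% of all, and the AP-1 motif in 1, beside 7.81%. The Grainyhead motif AACCNGTT (2.09% of all windows) and the TCF/LEF motif ATCAAAG (3.73%) had no match in the 10 windows. These windows had 52.0 to 68.0% G and C, beside a median of 52.7% over all windows, and the E-box itself is rich in both bases. A match describes the letters and does not show a bound factor.

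The libraries held 15039566 to 20504338 reads on genes, so that 1 read stood for 0.0466 to 0.0743 CPM (read counts scaled to a common library total with TMM factors). Over all 8 libraries Krt19 had 1319 reads, Krt18 183, Cldn4 102 and Krt7 64, and these 4 genes passed the filter on low counts. The other 6 had few reads: Epcam 21, Krt8 14, Cldn7 6, Ocln 4, Esrp1 4 and Cldn3 1. Krt7 passed the filter through the MEF libraries, Krt18 through the treated libraries and Cldn4 mainly through the CHIR-99021 libraries. Their differing is thus partly a condition of their being tested. As bulk samples, these libraries cannot tell fewer cells that express a gene from less RNA per cell. Counting error alone is covered by the intervals on reads given below.

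Per kilobase of exon (all annotated exons of a gene merged), Krt19 stood at 1.49 ± 0.333 CPM in MEFs (SD, n = 2), Krt18 at 0.354 ± 0.134, Krt7 at 0.225 ± 0.0848 and Cldn4 at 0.0764 ± 0.00765. The merged exons of Krt7 span 7049 bases, beside 1437 for Krt18 and 1855 for Krt19, which lowers its value per kilobase. Without the division by length, Krt7 stood above Krt18 in MEFs (1.58 and 0.508 CPM), so their order depends on the length used. Vimentin (Vim) stood at 520 to 546 CPM per kilobase in the MEF libraries and at 120 to 187 in the treated ones, and Krt19 at its highest mean, under carbidopa, was at 8.24 ± 2.98. The 4 keratins therefore remained far below vimentin in all 8 libraries. Of the 14 fibroblast markers all were tested, and their summed level was 42288 to 42607 CPM in MEFs and 10180 to 13738 CPM in treated libraries. None of 15 hepatocyte markers had enough reads to be tested, and 5 of them had no read in any library. The defining gene Alb had 2 and 0 reads in MEFs and 5 to 10 with a compound. Hnf4a, also defining, had 1 and 2 reads in MEFs and 6 to 10 with a compound. All treated libraries thus lay above both MEF libraries for these genes, at counts too low to test. The summed level of the 15 markers was 0.774 to 1.04 CPM in MEFs and 1.33 to 1.91 CPM with a compound. No hepatocyte marker thus reached a tested level in the cells that the labels call hepatic-like.

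**Figure D1:**
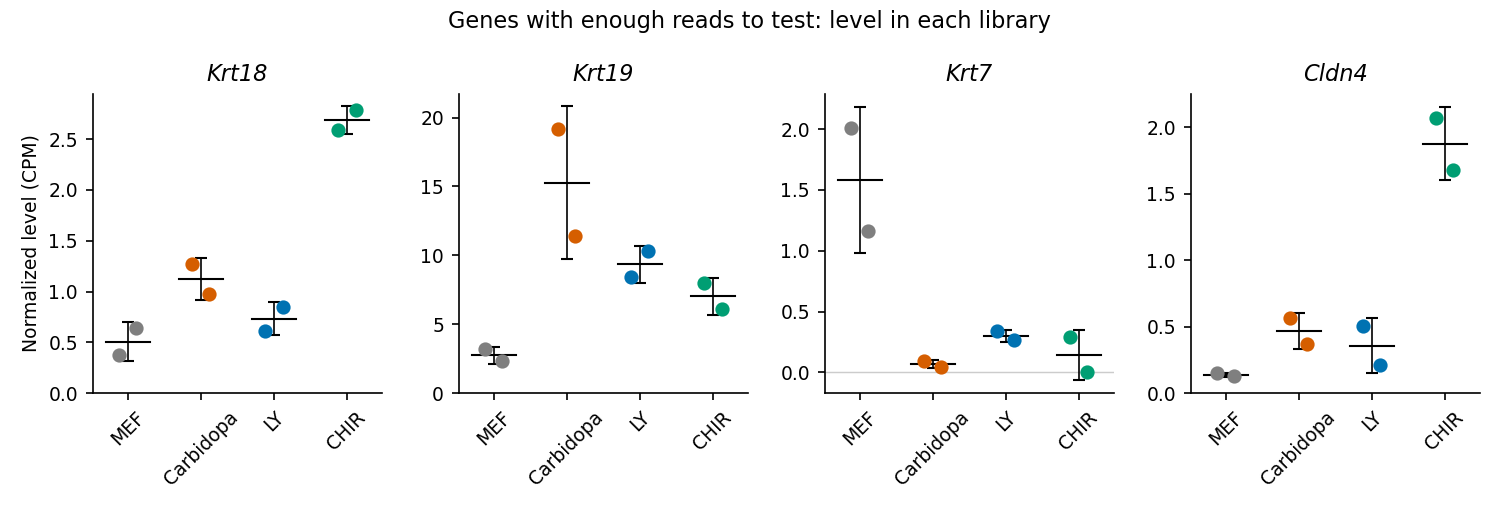
Level of Krt18, Krt19, Krt7 and Cldn4 in each of the 8 libraries, in CPM on a linear axis whose scale differs between panels. Points are libraries, horizontal lines group means and bars 1 SD (n = 2, CHIR is CHIR-99021 and LY is LY-364947). Krt19 was above MEFs in all 6 treated libraries and Krt7 below, while Krt18 and Cldn4 were highest in both CHIR-99021 libraries.

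Among the type I keratins, Krt19 rose with each compound. The MEF libraries had 43 and 36 Krt19 reads. Carbidopa libraries had 408 and 244, LY-364947 libraries 150 and 194, and CHIR-99021 libraries 139 and 105. No treated library came near the MEF range, and the carbidopa pair was the widest. Mean levels were 2.76 ± 0.618 CPM in MEFs, 15.3 ± 5.53 under carbidopa, 9.37 ± 1.35 under LY-364947 and 7.04 ± 1.35 under CHIR-99021 (SD, n = 2 each). In edgeR's quasi-likelihood test with Benjamini-Hochberg adjustment over the 15154 genes tested, which gives every adjusted p below unless another test is named, the log2 fold change against MEFs was 2.48 (SE 0.30, adjusted p = 1.14e-04) under carbidopa. It was 1.77 (SE 0.31, adjusted p = 0.00139) under LY-364947 and 1.36 (SE 0.31, adjusted p = 0.00652) under CHIR-99021. The first of these rises kept its call whichever library was left out, with log2 fold changes of 2.05 to 2.81, as did the second, with 1.55 to 2.01. The rise under CHIR-99021 lost its call without MEF library 2 (1.13, adjusted p = 0.0718) or CHIR-99021 library 1 (1.15, adjusted p = 0.0573). Genes called higher made up 18.0% of all genes tested under carbidopa, 13.7% under LY-364947 and 18.7% under CHIR-99021.

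The order of Krt19 levels was carbidopa, LY-364947, CHIR-99021 and MEFs, and not all neighbours in it differed. From carbidopa to LY-364947 the log2 fold change was -0.70 (95% interval -1.27 to -0.14) and missed the threshold (adjusted p = 0.519), although the libraries did not overlap. From LY-364947 to CHIR-99021 it was -0.41 (95% interval -1.01 to 0.19, adjusted p = 0.346). CHIR-99021 was lower than carbidopa by a log2 fold change of -1.12 (SE 0.26, adjusted p = 0.0183). That call was lost without carbidopa library 1 (-0.69, adjusted p = 0.0504), CHIR-99021 library 1 (-1.33, adjusted p = 0.0680) or CHIR-99021 library 2 (-0.93, adjusted p = 0.132). Conversely, LY-364947 was called lower than carbidopa without carbidopa library 2 (-1.03, adjusted p = 0.00486) and without a filter on low counts (-0.72, adjusted p = 0.0212).

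Krt18, the other type I chain and the hepatocyte partner of Krt8, rose under CHIR-99021. It had 5 and 10 reads in MEFs, 27 and 21 under carbidopa, 11 and 16 under LY-364947, and 45 and 48 under CHIR-99021. The CHIR-99021 libraries were alone at the top, the carbidopa libraries lay between, and the LY-364947 libraries overlapped MEFs on the CPM scale. Mean levels were 0.508 ± 0.193 CPM in MEFs, 1.12 ± 0.206 under carbidopa, 0.734 ± 0.166 under LY-364947 and 2.69 ± 0.137 under CHIR-99021 (SD, n = 2 each). The log2 fold change under CHIR-99021 was 2.37 (SE 0.40, adjusted p = 0.00101), and 2.05 to 2.82 with any 1 library left out, called each time. Under carbidopa it was 1.11 (SE 0.43, adjusted p = 0.0633), short of the threshold except without carbidopa library 2 (1.29, adjusted p = 0.0457). Under LY-364947 it was 0.51 (95% interval -0.51 to 1.53, adjusted p = 0.445).

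Krt7, the type II chain typical of ducts, went the other way. It had 27 and 18 reads in the MEF libraries, against 2 and 1 under carbidopa, 6 and 5 under LY-364947, and 5 and 0 under CHIR-99021. All 6 treated libraries lay below both MEF libraries. Mean levels were 1.58 ± 0.598 CPM in MEFs, 0.0703 ± 0.0336 under carbidopa, 0.301 ± 0.0498 under LY-364947 and 0.144 ± 0.203 under CHIR-99021 (SD, n = 2 each). The log2 fold change was -4.35 (SE 0.84, adjusted p = 0.00249) under carbidopa, and -4.87 to -3.92 with any 1 library left out. Under CHIR-99021 it was -3.38 (SE 0.78, adjusted p = 0.00627). This value rested on 5 reads in 1 library and was -7.82 without CHIR-99021 library 1 and -2.42 without CHIR-99021 library 2, called in both cases. Under LY-364947 it was -2.36 (SE 0.68, adjusted p = 0.0233). The LY-364947 call was lost without MEF library 1 (-1.92, adjusted p = 0.156), LY-364947 library 1 (-2.53, adjusted p = 0.0917) or LY-364947 library 2 (-2.20, adjusted p = 0.131). The ratio of pooled normalized reads to MEFs was 0.0452 under carbidopa (exact 95% interval 0.00899 to 0.141), 0.193 under LY-364947 (0.0902 to 0.380) and 0.0930 under CHIR-99021 (0.0288 to 0.233). Genes called lower made up 19.7% of those tested under carbidopa, 17.2% under LY-364947 and 20.1% under CHIR-99021. The table does not tell strand, and the antisense gene Gm671 touches 1 Krt7 exon.

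Mesothelium is a simple epithelium that covers body cavities and expresses keratins. Most of its tested markers were lower with each compound, as Krt7 was, while others were higher. The defining markers mesothelin (Msln, 78 to 87 reads in MEFs and 14 to 32 with a compound) and uroplakin 3b (Upk3b, 160 to 188 and 7 to 23) fell with all 3 compounds. Their log2 fold changes were -2.38 to -2.19 for Msln and -3.78 to -3.47 for Upk3b. Another defining marker, Wt1, went the other way and rose under carbidopa and LY-364947, with log2 fold changes of 1.00 and 1.12 (0.82 under CHIR-99021, not called). Of the 3 markers with the smallest p, Cdh3 and Upk1b fell with each compound. The other, Nkain4, rose by log2 fold changes of 2.52, 2.38 and 0.66 under carbidopa, LY-364947 and CHIR-99021. Of the 14 markers 13 were tested, of which 9 were lower and 4 higher under carbidopa, 9 and 4 under LY-364947, and 8 and 2 under CHIR-99021. The median over the 13 was -2.54, -2.96 and -1.83, beside 0.04, 0.03 and 0.04 over all genes tested. Their summed level was nonetheless 700 to 727 CPM in MEFs, 1442 to 1504 under carbidopa, 1420 to 1475 under LY-364947 and 890 to 1002 under CHIR-99021. The defining markers made up little of this sum, with Msln, Upk3b and Wt1 each at 1.86 to 12.1 CPM in MEFs. A sum follows its most abundant genes, so its rise is not one of most markers. Efemp1, named after its values had been seen, rose by log2 fold changes of 1.35, 1.33 and 0.68. Markers of mesothelium were thus present in the MEF libraries, and their part in the fall of Krt7 was not tested.

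Krt8, the usual type II partner of Krt18, stayed at the edge of detection. It had 6 and 0 reads in MEFs, 1 and 0 under carbidopa, 0 and 2 under LY-364947, and 2 and 3 under CHIR-99021. In the CHIR-99021 libraries, in which Krt18 had 93 reads together, Krt8 had 5. Per kilobase, the mean was 0.0738 ± 0.0213 CPM for Krt8 and 1.87 ± 0.0957 CPM for Krt18 in that group (SD, n = 2). The ratio of pooled Krt8 reads between CHIR-99021 and MEFs was 0.697, with an exact 95% interval of 0.168 to 2.74, and no change was detectable at this depth. Of the exon sequence of Krt8, 23.5% of 75-base words also occur in the pseudogene Krt8-ps or in Gm36026, whereas Krt18, Krt19, Epcam and the claudins share none. Krt8-ps had no read in any library. How reads mapping to several places were counted is not given in the sources used here, and some Krt8 reads may be missing.

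Over the whole families, the sums of type I keratins were higher with every compound, while those of type II keratins depended on the compound. Krt18 and Krt19 together had 46 to 48 reads in MEFs and 153 to 435 with a compound, while Krt7 and Krt8 together had 18 to 33 and 1 to 7. All 28 type I keratins of the table had 96 to 99 reads in MEFs and 381 to 852 with a compound. The 26 type II keratins had 44 to 52 reads in MEFs, 7 to 15 under LY-364947 and 21 to 24 under CHIR-99021, but 89 and 227 under carbidopa. Type I sums thus lay above MEFs in all 6 treated libraries, and type II sums were below MEFs in the 4 LY-364947 and CHIR-99021 libraries and above them in the carbidopa libraries.

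**Figure D2:**
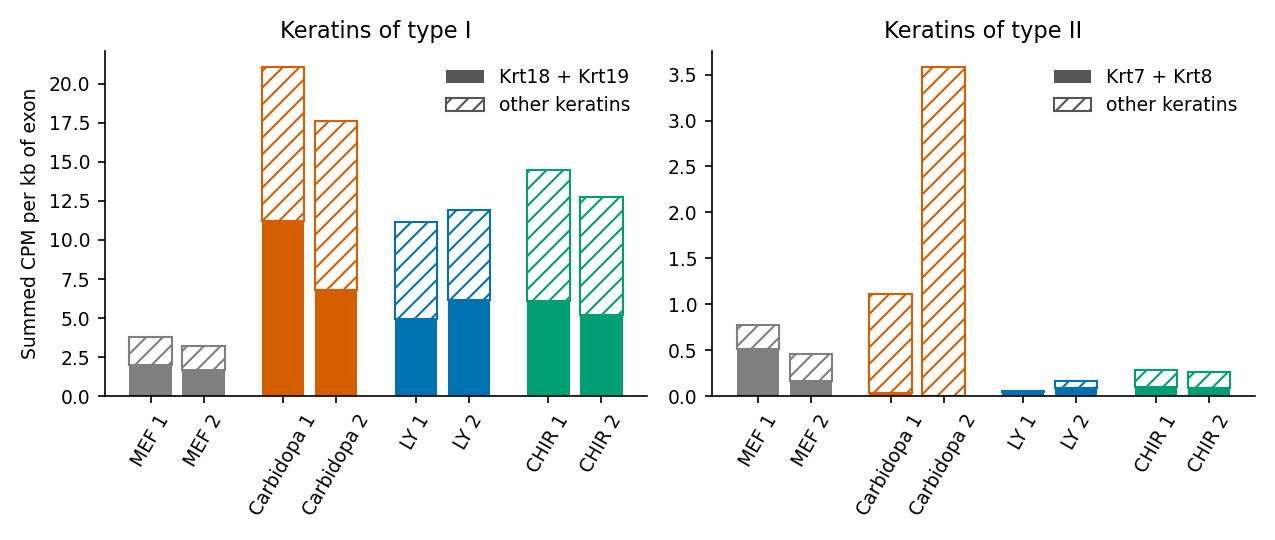
Summed level of type I keratins (left) and type II keratins (right) in each library, in CPM per kilobase of exon, with separate scales for the panels. Filled bars are Krt18 and Krt19 or Krt7 and Krt8, and hatched bars the other 26 and 24 keratins. Krt7 enters with 7049 bases of merged exon, beside 1958 for Krt8, which lowers its part of the type II sum. The type I sum lay at 3.25 to 3.82 in MEFs and 11.1 to 21.04 with a compound, and the type II sum at 0.465 to 0.778 in MEFs, where Krt7 and Krt8 made up a visible part, and 3.58 in carbidopa library 2, where they did not.

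Of 50 other keratins 26 had no read and 7 were tested. Krt20, a type I keratin of gut and urothelium, had 27 and 24 reads in MEFs and 172 to 233 with a compound. Its log2 fold changes of 2.46, 2.46 and 2.86 (carbidopa, LY-364947 and CHIR-99021) were all called and stood beside those of Krt19. Of the 7, 5 were higher and 1 lower under carbidopa, 1 and 1 under LY-364947, and 1 and 0 under CHIR-99021, with medians of 2.46, 0.00 and 0.61, for which Krt1, without reads outside carbidopa, entered at its fitted value. Krt1, Krt5 and Krt14, 3 of the 5, passed the filter through the carbidopa libraries, which partly fixes this count. The extra type II reads under carbidopa came from epidermal keratins. Krt1, a keratin of differentiating epidermis, had 58 and 91 reads under carbidopa and none in the other 6 libraries, and Krt10, its type I partner, had 170 and 102 beside 18 to 38 elsewhere. The basal keratin Krt5 had 16 and 30 reads under carbidopa, and its partner Krt14 had 18 and 78, with at most 2 reads of either in any other library. Carbidopa library 2 alone held 53 reads of Krt6a and 40 of Krt6b, and 44 of the 45 reads of Krt16. These last 3 genes were named after their values had been seen.

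Krt19 is also expressed in hair follicles. Within the carbidopa pair it had 408 reads in library 1 and 244 in library 2, and Krt10 was likewise higher in library 1, whereas Krt14, Krt5 and Krt1 were higher in library 2. Of 9 basal epidermal markers 4 were tested, 3 of them higher under carbidopa, none under LY-364947 and 1 under CHIR-99021, and none was called lower (medians 2.56, -1.68 and -0.18, which rest on fitted values of genes near 0 reads). Krt5 and Krt14 passed the filter through the carbidopa libraries, so that being higher there was a condition of their being tested, and the count is no support for a difference. Their summed level, mostly from genes with other uses such as Perp, was 96.6 to 98.7 CPM in MEFs, 111 to 153 under carbidopa, 118 to 119 under LY-364947 and 135 to 137 under CHIR-99021. The defining gene Trp63 had at most 4 reads. Library 1, which holds more Krt19 reads, also has epidermal keratin reads, so leaving out either library does not remove them, and the part of epidermal cells in the carbidopa values was not tested.

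Cldn4, a claudin that seals the paracellular path in many epithelia, had the largest rise among the 4 genes tested. It had 2 reads in each MEF library, 12 and 8 under carbidopa, 9 and 4 under LY-364947, and 36 and 29 under CHIR-99021. All treated libraries were above both MEF libraries, and the CHIR-99021 libraries were above all others. Mean levels were 0.139 ± 0.0139 CPM in MEFs, 0.469 ± 0.135 under carbidopa, 0.359 ± 0.206 under LY-364947 and 1.88 ± 0.275 under CHIR-99021 (SD, n = 2 each). The log2 fold change under CHIR-99021 was 3.70 (SE 0.60, adjusted p = 7.72e-04), and 3.54 to 3.84 with any 1 library left out. The pooled reads gave a ratio of 13.6 to MEFs, with an exact 95% interval of 5.06 to 51.4 that follows from the 4 MEF reads. Under carbidopa the log2 fold change was 1.71 (SE 0.70, adjusted p = 0.0804) and under LY-364947 1.32 (SE 0.75, adjusted p = 0.216), neither past the threshold. The ratio of pooled reads was 3.39 (1.14 to 13.6) and 2.57 (0.794 to 10.8) in these groups.

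**Figure D3:**
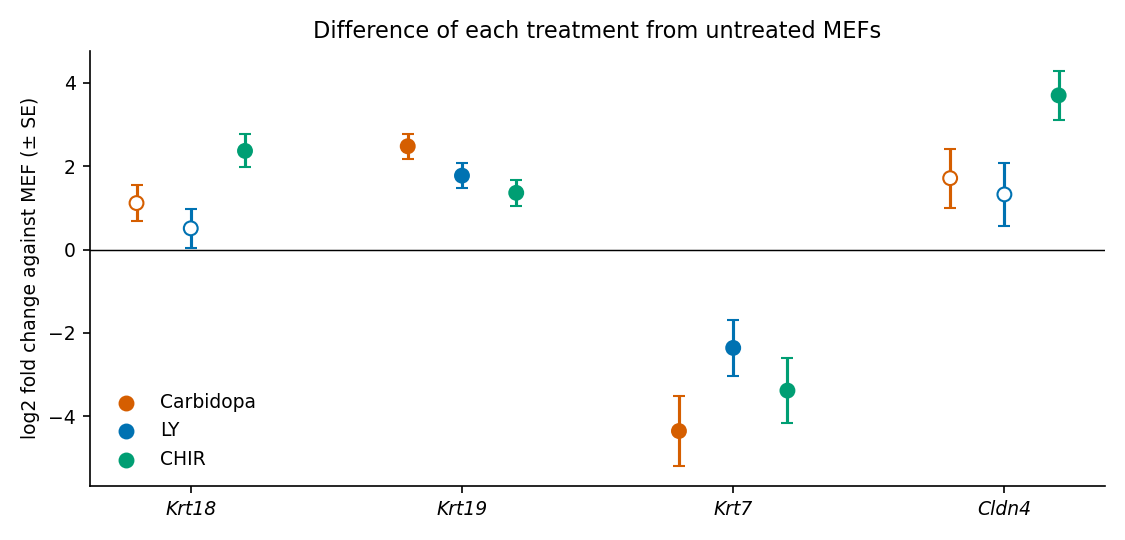
Log2 fold change of Krt18, Krt19, Krt7 and Cldn4 against MEFs for each compound, with bars of 1 SE from the fit over all 8 libraries. Filled points passed an adjusted p of 0.05 and open points did not. All 4 genes passed under CHIR-99021, and Krt19 (higher) and Krt7 (lower) passed with each compound.

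Under CHIR-99021, then, 3 of the 4 tested genes were called higher and 1 lower, whereas under carbidopa and under LY-364947 1 was called higher and 1 lower. Krt7, Krt18 and Cldn4 passed the filter through MEF or through treated libraries only, which partly fixes this tally. Over all genes, the shares called against MEFs were 18.0% higher and 19.7% lower under carbidopa, 13.7% and 17.2% under LY-364947, and 18.7% and 20.1% under CHIR-99021, so that 1 of 4 in a direction is near the share over all genes. The comparisons between compounds address whether these patterns differ. Carbidopa, LY-364947 and CHIR-99021 were all given at 10 µM, and the shares of all genes called between them were 6.62% higher and 8.08% lower in CHIR-99021 than in carbidopa, 6.45% and 7.69% for CHIR-99021 against LY-364947, and 0.0132% and 0% for LY-364947 against carbidopa. These comparisons use the same treated libraries in turn and are not independent of one another.

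Krt18 was higher under CHIR-99021 than under LY-364947, with a log2 fold change of 1.86 (SE 0.36, adjusted p = 0.00759), and higher than under carbidopa, with 1.25 (SE 0.33, adjusted p = 0.0315). Neither pair of groups overlapped. The first call was lost without CHIR-99021 library 1 (1.91, adjusted p = 0.0520) or LY-364947 library 1 (1.64, adjusted p = 0.0918). The second was lost without carbidopa library 2 (1.08, adjusted p = 0.0594), CHIR-99021 library 1 (1.30, adjusted p = 0.139) or CHIR-99021 library 2 (1.20, adjusted p = 0.139), under DESeq2 (1.25, adjusted p = 0.118) and in a fit of the compared groups alone (1.26, adjusted p = 0.0563).

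Cldn4 was likewise higher under CHIR-99021 than under LY-364947, by 2.38 on the log2 scale (SE 0.48, adjusted p = 0.00927), and than under carbidopa, by 1.99 (SE 0.45, adjusted p = 0.0152). Its CHIR-99021 libraries, at 29 and 36 reads, did not overlap any other. The first call was lost without CHIR-99021 library 1 (2.22, adjusted p = 0.0835) or LY-364947 library 2 (1.88, adjusted p = 0.0796), and the second without CHIR-99021 library 1 (1.83, adjusted p = 0.119) or library 2 (2.13, adjusted p = 0.0509) and under DESeq2 (2.00, adjusted p = 0.0559). With any 1 library left out, the first difference was 1.88 to 3.09 and the second 1.72 to 2.31, so their direction held while their size varied.

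Between LY-364947 and carbidopa none of the 4 genes was called by DESeq2 or in edgeR's filtered fit of all 8 libraries. In the latter 1 of the 4, Krt19, had an unadjusted p under 0.05, and it was called without a filter, as given above. The log2 fold change of Krt18 was -0.61 (95% interval -1.46 to 0.25), that of Cldn4 -0.39 (-1.62 to 0.84) and that of Krt7 1.99 (-0.34 to 4.32). These intervals include differences as large as several of those called against MEFs. For Krt7 the CHIR-99021 group was not called against LY-364947 (-1.02, 95% interval -3.16 to 1.12) or carbidopa (0.97, -1.74 to 3.68). Krt18 and Cldn4 both ran CHIR-99021, carbidopa, LY-364947, MEFs, where only the step from CHIR-99021 to carbidopa was called between neighbours, and Krt7 ran MEFs, LY-364947, CHIR-99021, carbidopa, where only the first step was called.

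Over the 8 libraries, log2 CPM of Krt18 and Cldn4 went together (Pearson r = 0.91), and Krt7 ran against Krt19 (-0.73), Krt18 (-0.73) and Cldn4 (-0.63). Krt19 had lower coefficients with Krt18 (0.37) and Cldn4 (0.36). These are descriptions over 8 libraries that share 4 group means, with no test. Among all genes tested, those with the profile most like Krt19 were Pdlim2 (r = 0.99), a cytoskeletal PDZ and LIM protein, Anxa3 (0.99), a phospholipid-binding annexin, and Kxd1 (0.99), a subunit of a lysosome-positioning complex. Their range was smaller than that of Krt19: Pdlim2 rose from 26.0 to 28.5 CPM in MEFs to 36.7 to 56.2 with a compound, and Anxa3 from 221 to 245 CPM in MEFs to 361 to 551.

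The remaining junction and surface genes were too low to describe more than their reads. Epcam had no read in either MEF library, 3 and 6 under carbidopa, 3 and 2 under LY-364947, and 2 and 5 under CHIR-99021. It was therefore seen in all 6 treated libraries and in neither MEF library, and the 0 reads of the MEF group allow up to 3 reads over both its libraries. Against those 3 reads, and with the treated reads as counted, Epcam was at least 2.03-fold higher under carbidopa, 1.32-fold under LY-364947 and 1.95-fold under CHIR-99021. When all genes with reads were tested, its adjusted p was 0.0938, 0.235 and 0.109, so the difference did not pass the threshold.

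Cldn3, the neighbour of Cldn4, had 1 read in LY-364947 library 2 and none elsewhere. Cldn7 had 0 to 2 reads per library, with 1 and 2 in MEFs, 1 and 0 under carbidopa, none under LY-364947 and 1 in each CHIR-99021 library. Ocln, the gene of occludin, had 0 to 2 reads per library, 4 in all. In contrast to Cldn4, none of these strand proteins gained reads under CHIR-99021 beyond 1 per library. Esrp1 had 1 read in MEF library 2, 2 and 1 under carbidopa and none under LY-364947 or CHIR-99021. The 6 low genes together had 3 to 10 reads per library, 3 and 8 in MEFs among them. In edgeR's fit without a filter none of the 6 was called in any of the 6 comparisons, with 1 of 6 at an unadjusted p under 0.05 for carbidopa and for CHIR-99021 against MEFs (Epcam in both) and none in the other 4.

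**Figure D4:**
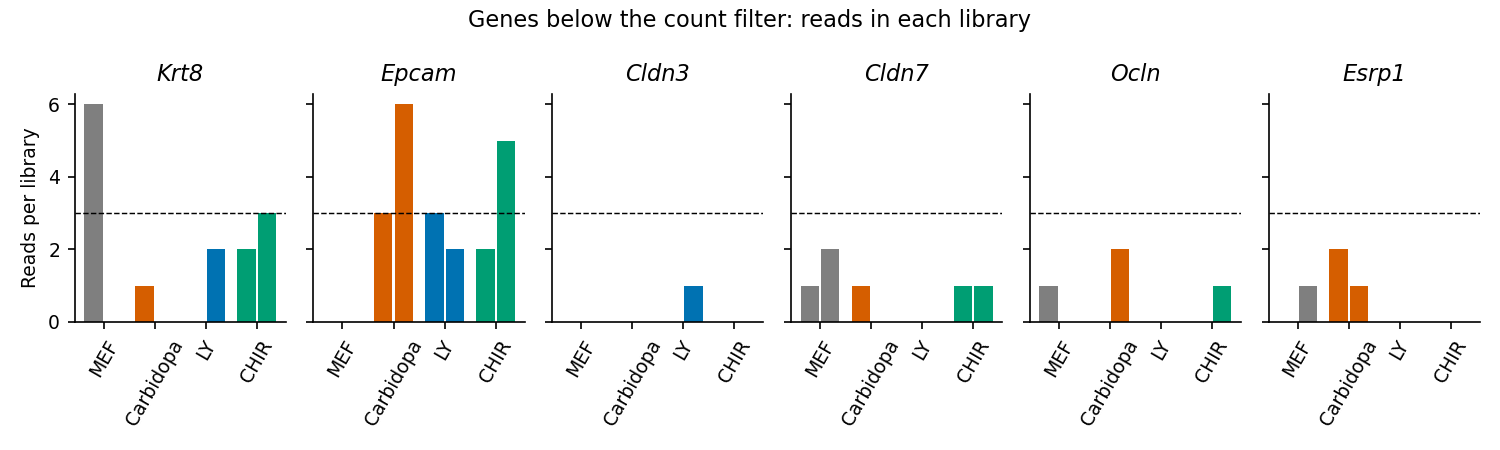
Reads of Krt8, Epcam, Cldn3, Cldn7, Ocln and Esrp1 in each library, bars in the order library 1 and library 2 of each group. The dashed line marks 3 reads. Epcam is at 0 in both MEF libraries and at 2 to 6 in the treated ones, and no other of these genes exceeds 3 reads outside MEF library 1.

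Other epithelial genes give the setting of these low counts. E-cadherin (Cdh1), the adhesion molecule that defines epithelia, had no read in MEFs and 0 to 4 with a compound, and Grhl2, a factor that maintains epithelial genes, had 1 read over the 8 libraries together. Of 17 such surface and protease genes 7 were tested, with 2 higher and 1 lower under carbidopa, 1 and 0 under LY-364947, and 4 and 1 under CHIR-99021. Their medians were 0.28, 0.37 and 0.50, beside 0.04, 0.03 and 0.04 over all genes. Esrp2, the paralogue of Esrp1, had 2 and 23 reads in MEFs, 22 and 29 under carbidopa, 26 and 28 under LY-364947, and 58 and 48 under CHIR-99021. Its rise under CHIR-99021 was called at a log2 fold change of 1.84 (SE 0.57, adjusted p = 0.0258), with MEF libraries that lay far apart. Of 6 tested epithelial transcription and splicing regulators it was the one called higher in any group, and Rbm47 and Klf4 were called lower in all 3 (medians 0.03, -0.03 and -0.31).

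The repressors of epithelial genes, among them the Snail and Zeb factors whose E-box is in the windows printed above, did not move as a group. Of 6, with medians of -0.08, 0.03 and -0.24, Zeb2 and Snai2 were lower with each compound, with log2 fold changes of -1.19 to -0.94 and -0.94 to -0.29. Twist2 was higher with each (0.90 to 1.41), Snai1 was higher under CHIR-99021 (0.50), and Zeb1 and Twist1 were not called.

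Of 18 listed partners of Cldn4 at the tight junction, 12 had enough reads to be tested. F11r, the junctional adhesion molecule JAM-A, had 331 and 369 reads in MEFs and 5051 to 7783 with a compound, and its log2 fold changes were 3.80, 3.93 and 3.59 for carbidopa, LY-364947 and CHIR-99021. Cgnl1, the linker paracingulin, rose by 1.68, 1.90 and 2.01, and the scaffold Magi3 by 0.90, 1.04 and 0.81. Of the 12, 4 were higher under carbidopa, 5 under LY-364947 and 9 under CHIR-99021, and none was called lower. Over all genes tested, 18.0%, 13.7% and 18.7% were called higher and 19.7%, 17.2% and 20.1% lower, in the same order. The medians of the 12 were 0.19, 0.41 and 0.74, beside 0.04, 0.03 and 0.04 over all genes tested. Per kilobase, F11r stood at 109 to 143 CPM in treated libraries, where Cldn4 reached a group mean of 1.03 ± 0.152 under CHIR-99021 (SD, n = 2).

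Other claudins included 1 that fell while Cldn4 rose. Cldn1, the barrier claudin of epidermis and liver, had 561 and 799 reads in MEFs, 35 and 57 under carbidopa, 26 and 32 under LY-364947, and 5 and 2 under CHIR-99021. Against MEFs, these are log2 fold changes of -4.43, -4.87 and -7.80, all called. Cldn4 and Cldn1 thus had their highest and lowest levels in the same CHIR-99021 libraries. Of 21 other claudins 7 had no read and 4 were tested, of which 2 were higher and 1 lower under carbidopa and under LY-364947, and 1 and 1 under CHIR-99021, with medians of 0.74, 0.72 and -0.14. Cldn12, a broadly expressed claudin, rose by log2 fold changes of 0.36, 0.46 and 0.81.

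**Figure D5:**
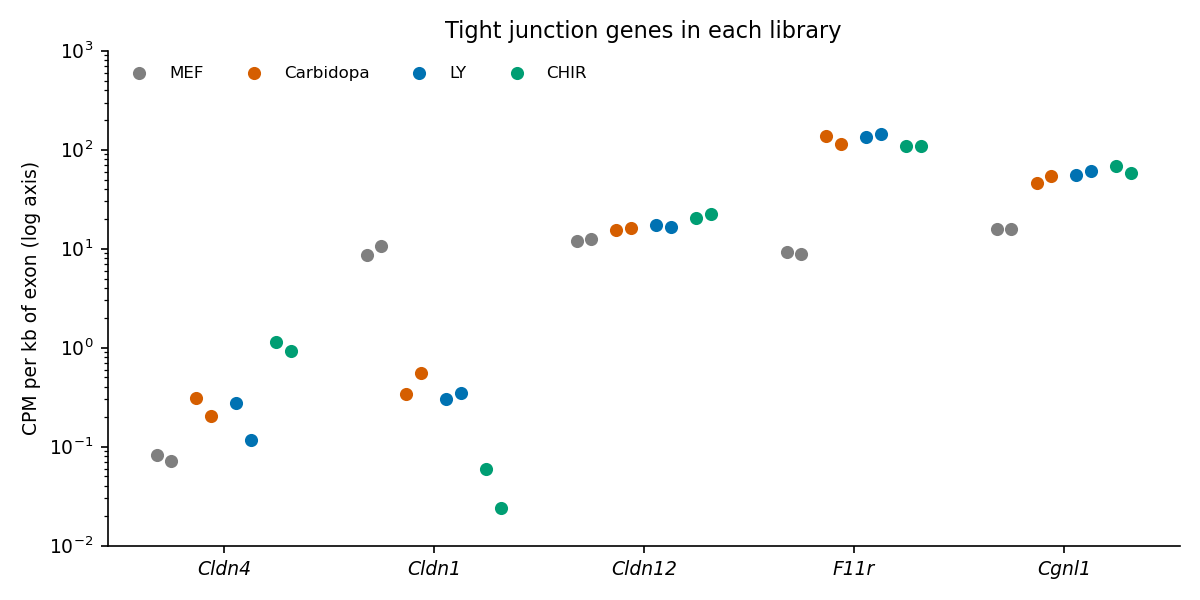
CPM per kilobase of exon, on a log axis, of Cldn4, Cldn1, Cldn12, F11r and Cgnl1 in each library (points, coloured by group). Cldn4 was at 0.0764 in MEFs and 1.03 under CHIR-99021 on average, Cldn1 ran from 8.61 to 10.6 in MEFs down to 0.0240 to 0.0594 under CHIR-99021, and F11r and Cgnl1 were higher in all treated libraries.

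The other groups around these genes moved in both directions, and several of their counts are near the shares of all genes called, which were 18.0% higher and 19.7% lower under carbidopa, 13.7% and 17.2% under LY-364947, and 18.7% and 20.1% under CHIR-99021. Of 13 adherens junction and desmosome genes tested, 2 were higher and 6 lower under carbidopa, 1 and 2 under LY-364947, and 3 and 3 under CHIR-99021 (medians -0.13, -0.18 and 0.04). P-cadherin (Cdh3), which is also among the mesothelial markers, fell by log2 fold changes of -4.41, -3.84 and -1.83, and Nectin2 rose by 1.62, 1.42 and 2.01. Of 9 tested partners of keratin filaments, 1 was higher and 3 lower under carbidopa, 0 and 1 under LY-364947, and 3 and 1 under CHIR-99021 (medians 0.12, 0.02 and 0.26). Plectin (Plec), which ties intermediate filaments to junctions, fell with each compound, by log2 fold changes of -1.87, -1.60 and -0.69. Stratifin (Sfn), which binds Krt18 among other proteins, rose under CHIR-99021 by 1.52 and was not called under carbidopa or LY-364947 (0.76 and 0.67).

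Bile duct and hepatic progenitor markers, which Krt7, Krt19 and Epcam are often grouped with, also split. Of 11 others, 7 were tested, with 3 higher and 4 lower under carbidopa and under LY-364947, and 2 and 4 under CHIR-99021, at medians of -1.13, -1.07 and -0.63. Sox9, the defining ductal factor, fell with each compound by log2 fold changes of -1.13, -1.07 and -0.63, in the same libraries in which Krt19 rose. Lgr5 fell from 397 to 422 CPM in MEFs to 0.505 to 1.04 CPM with a compound, and Spp1 from 435 to 496 CPM to 122 to 192 CPM. In contrast, Sox4 rose by log2 fold changes of 0.90, 0.82 and 1.31, and Cd24a by 0.77, 0.97 and 1.11. The summed level of the 11 was 1220 to 1258 CPM in MEFs and 603 to 1008 CPM with a compound. Much of the MEF sum came from Lgr5 and Spp1, so its fall does not describe the set. Of 10 endothelial markers 3 were tested, with none higher and 1, 1 and 2 lower (medians -0.77, -0.27 and -1.66), the summed level was 17.4 to 19.8 CPM in MEFs and 11.6 to 15.8 CPM with a compound, and Pecam1 had at most 4 reads. Of the 14 fibroblast markers, 12 were lower and 1 higher with each compound (medians -1.82, -1.59 and -1.57), beside the rise of Krt19, and the part of a changed mix of cells in the keratin values was not tested.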

How the data were processed

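RNA-seq counts of 8 libraries from 4 groups were analysed. The authors mapped read pairs to mm10 with STAR 2.4.2a, counted reads per gene with featureCounts, and deposited raw counts, whole numbers without normalization. The annotation release and the strand setting are not given in the sources used here. The labels and the methods name different library kits. The groups and library numbers came from the labels.

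Differences were tested with edgeR 4.0.16 in R 4.3.3 (TMM factors, filterByExpr, 1 quasi-likelihood fit of all 8 libraries whose single term was the group), and an adjusted p under 0.05 was called. The common coefficient of biological variation was 11.0%. The fit was tested on simulated counts. Levels are CPM on TMM-scaled totals, per kilobase of merged exons (GENCODE M21, GRCm38) where genes are compared, with all 10 genes found there. Ratios of pooled reads have exact conditional 95% intervals, except where a group without reads was set to 3, which gave a ratio without an interval. No molecular identifiers were used, and PCR copies of a molecule can be counted repeatedly, so these cover counting error only. Replicate libraries differed by more than sampling noise, and the carbidopa pair stood apart, with a chi-square per degree of freedom of 34.6 beside 4.31 (MEF), 7.25 (LY-364947) and 9.21 (CHIR-99021). Log2 CPM for correlations used a prior count of 2, and likeness was listed for genes with a mean of at least 50 counts.

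The genes, the lists around them and the tests were chosen with earlier results of these data known. Named are all 10 genes, of each list up to 3 genes with the smallest p against MEFs and its defining markers, and the 3 genes most like Krt19. The lists were other keratins, other claudins, tight junction partners, adherens junction and desmosome genes, keratin filament partners, regulators and repressors of epithelial genes, and epithelial surface, mesothelial, basal epidermal, hepatocyte, biliary, endothelial and fibroblast markers.

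Alternatives were DESeq2 1.42.0, RLE size factors in edgeR, no filter, at least 10 counts in every library, the compared groups alone, a replicate block, DESeq2 size factors for levels, and leaving out each library. A library left alone in its group was assumed to vary like the other groups.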

Additional observations from a re-analysis of the deposited data

How the results depend on the processing

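Of 312 refitted log2 fold changes of Krt7, Krt18, Krt19 and Cldn4, 287 kept their direction and side of the threshold, 20 lost and 3 gained a call, and 2 changed sign without being called: Cldn4 in LY-364947 against carbidopa (-0.39, and -1.11 to 0.11 with 1 library left out, the latter without LY-364947 library 2) and Krt7 in CHIR-99021 against carbidopa (0.97, and -3.47 to 1.93, the former without CHIR-99021 library 1). DESeq2 gave no adjusted p for 2 of its values. Of 40 group levels, 39 moved by less than 1 SD with DESeq2 size factors. Requiring 10 counts or more per library kept Krt19 alone of the 10 genes, so 1 gene was called in each comparison with MEFs and in CHIR-99021 against carbidopa, and 0 in CHIR-99021 against LY-364947. LY-364947 against carbidopa had 1 without a filter, and CHIR-99021 against carbidopa 1 by DESeq2.

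With each library left out in turn, the number of these genes called ranged from 2 to 3 (carbidopa), 1 to 2 (LY-364947) and 3 to 4 (CHIR-99021) against MEFs, 0 to 1 for LY-364947 against carbidopa, 0 to 3 for CHIR-99021 against carbidopa and 0 to 2 for CHIR-99021 against LY-364947. Over all genes, calls ranged from 3164 to 7971, 2885 to 6466, 3487 to 7722, 2 to 3832, 735 to 4675 and 665 to 4255 in the same order, beside 5717, 4694, 5878, 2, 2227 and 2143 with all libraries. For LY-364947 against carbidopa, 3832 were called without carbidopa library 2, 16 by DESeq2, 329 without a filter and 0 in the compared groups alone. The compared groups alone gave 1027 for CHIR-99021 against carbidopa and 3673 for CHIR-99021 against LY-364947. The cause of these shifts was not tested, apart from the number of genes that the filters leave.

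Libraries share only a number across groups: deviations of same-numbered libraries correlated at -0.16 to 0.13. A replicate block changed no call of the 4 genes (2, 2, 4, 0, 3 and 2 called) and gave 5473, 4424, 5722, 2, 2010 and 1973 genes in the same order. Depth limits the 6 low genes most, since 1 read is 0.0466 to 0.0743 CPM.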
